A study of Mus musculus with 8 samples.

Results

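In all, 10 heat shock chaperone genes were followed across the neurons of the mouse stellate ganglion. The members were a list of names, Hspa1a, Hspa1b, Dnajb1, Hsph1, Hspb1 and Hsp90aa1, which textbooks describe as heat inducible, and Hspa8, Hsp90ab1, Dnaja1 and Hspa5, which most cells express constitutively. All 10 were present among the 19224 genes measured and all 10 passed the filter on low values. They were listed by name with earlier results of these neurons in view, and the subtypes they are compared across were clustered by the authors from the same cells, so each comparison below describes how steady a difference was over mice and is no independent test of the grouping.

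The study sequenced single cells of both stellate ganglia, the sympathetic ganglia that supply the heart and the front paws, from C57BL6/J mice aged 8-10 weeks in 1 condition. Retrograde AAV vectors had been injected in these animals, with GFP for neurons reaching the heart and tdTomato for those reaching the front paws. The deposited data held 1303 neurons in 8 subtypes named by the authors: the noradrenergic NA1a, NA1b, NA1c, NA2 and NA3, the cholinergic Ach1 and Ach2, and the glutamatergic Glut. Of the 8 mouse names in the data, 5 matched 1 sample each, all of batch 2 in the sample list of the study. Values over mice rest on the 1002 neurons of these 5, with NA1a, NA1b, NA1c and NA2 measured in 5 mice and NA3 in 3 mice with at least 10 neurons. Levels are the mean number of transcript molecules (UMIs) per 10000 UMIs of a neuron, over the neurons of a mouse, and they compare a gene between subtypes, not 1 gene with another. The subtypes held a median of 2162 (Ach1) to 8182 (NA1a) UMIs per neuron in these mice, with 6644 in NA3, 3338 in NA1b and 2342 in NA2.

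Of the 1002 neurons, 73 carried 1 of 21 cell barcodes that occurred in 2 to 5 of the 5 libraries, and 20 of the 21 barcodes fell in the same subtype in each of them. These neurons made up 55 of the 150 NA2 neurons, 15 of 46 Ach2 neurons and 3 of 17 Glut neurons, and no other subtype held any. The NA2 profiles of different mice may therefore not be fully separate, and the NA2 differences of the members that were called, and the NA2 counts of the gene lists, are given with and without these neurons. Without them 4 mice kept at least 10 NA2 neurons. The defining neuron markers were present in every subtype. The summed level of 6 neuron markers (Snap25, Syt1, Pcsk1n, Prph, Dbh and Th) was 94.6 to 132 UMIs per 10000 in NA1a, NA1b, NA1c and NA2, 95.1 in Ach1 and 74.1 to 81.4 in Ach2. It was 44.2 to 54.4 in NA3, where 10 satellite glia markers summed to 223 to 446, against 4.32 to 30.0 in the NA1 subtypes and 6.41 to 14.0 in NA2.

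Chaperones bind unfolded protein and help it to fold, to be rescued from aggregates or to be passed on for degradation. When unfolded protein builds up, the transcription factor HSF1 is released, trimerises and binds heat shock elements, which are alternating repeats of GAA and TTC in the promoters of the inducible genes, whereas constitutive members serve folding and vesicle uncoating at rest and the endoplasmic reticulum chaperone answers to a separate stress pathway. Large postmitotic neurons are known to hold high levels of constitutive chaperones, and enzymatic dissociation of tissue is a known inducer of Hspa1a, Hspa1b and immediate early genes. The ganglia were digested with enzymes at 37 °C before capture, and the part of this step in the levels below was not tested.

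The promoters of 3 inducible genes are printed because they hold the short heat shock element and their levels differed most between the subtypes or, for Hspb1, took another order. Each is the 250 bases upstream of the start in the RefSeq promoter table for GRCm38.p6, 5′ to 3′ on the strand of the gene, with GAANNTTC or TTCNNGAA (the motif is its own reverse complement, so both strands are covered) in capitals. The Hspa1a stretch is chr17:34972157-34972406 on the minus strand, that of Hspa1b is chr17:34959239-34959488 on the minus strand, and that of Hspb1 is chr5:135887669-135887918 on the plus strand.
Hspa1a: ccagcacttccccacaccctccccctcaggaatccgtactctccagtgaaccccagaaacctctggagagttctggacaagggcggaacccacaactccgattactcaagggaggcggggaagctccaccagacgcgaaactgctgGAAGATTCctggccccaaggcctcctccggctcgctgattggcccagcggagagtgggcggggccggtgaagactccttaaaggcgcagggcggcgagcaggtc
Hspa1b: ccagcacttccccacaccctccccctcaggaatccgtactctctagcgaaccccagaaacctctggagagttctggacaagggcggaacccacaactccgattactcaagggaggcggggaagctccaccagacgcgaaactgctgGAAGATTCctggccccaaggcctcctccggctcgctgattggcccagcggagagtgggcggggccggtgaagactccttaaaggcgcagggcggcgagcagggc
Hspb1: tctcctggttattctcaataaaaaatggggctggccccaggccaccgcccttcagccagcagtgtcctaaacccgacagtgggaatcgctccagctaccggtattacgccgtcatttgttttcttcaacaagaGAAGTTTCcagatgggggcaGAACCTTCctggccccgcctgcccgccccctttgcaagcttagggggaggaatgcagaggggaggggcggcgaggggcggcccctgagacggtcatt
Hspa1a and Hspa1b carried the motif at the same place, with its first base at position -104 from the start, and the stretches were identical at 98.8% of their 250 bases. Hspb1 carried it at -117 and -97. Promoters were found for 7 of the 10 members, in 11 windows. The motif was also present in both Hsph1 windows and in 1 of 3 Dnaja1 windows, and it was not found in those of Dnajb1 or Hspa5. It occurred in 12.8% of all 32851 promoter windows. The longer element, with 1 more GAA or TTC unit in the same spacing, was found in none of the 11 windows and in 0.466% of all windows. The endoplasmic reticulum stress element, searched on both strands, was found in Hspa5 alone among the members, at -65, and in 0.113% of all windows.

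Hspa1a (chr17:34969190-34972156, minus strand) and Hspa1b (chr17:34956436-34959238, minus strand) encode the stress-inducible cytosolic Hsp70 proteins, each from a single exon. Their transcripts were 99.6% identical over the first 1000 bases and 47.0% over the last 500 bases in GENCODE vM21, so reads from the coding part could not be assigned to 1 of them with certainty, and the sum of the pair, 45.2 ± 7.76 (SD, n = 3) in NA3 and 3.69 ± 1.55 (n = 5) in NA2, does not depend on that split. In NA3 the level of Hspa1a was 39.2, 39.6 and 26.3 UMIs per 10000 in replicates 2, 4 and 5. In NA1a it was 4.91, 6.06, 2.70, 7.35 and 3.39 in replicates 1 to 5. In NA2 it was 2.32, 4.27, 1.51, 3.99 and 1.62. Every NA3 value lay above every value of NA1a, NA1b, NA1c and NA2, and in all 5 mice NA2 was below the NA1a, NA1b and NA1c of the same animal.

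**Figure D1:**
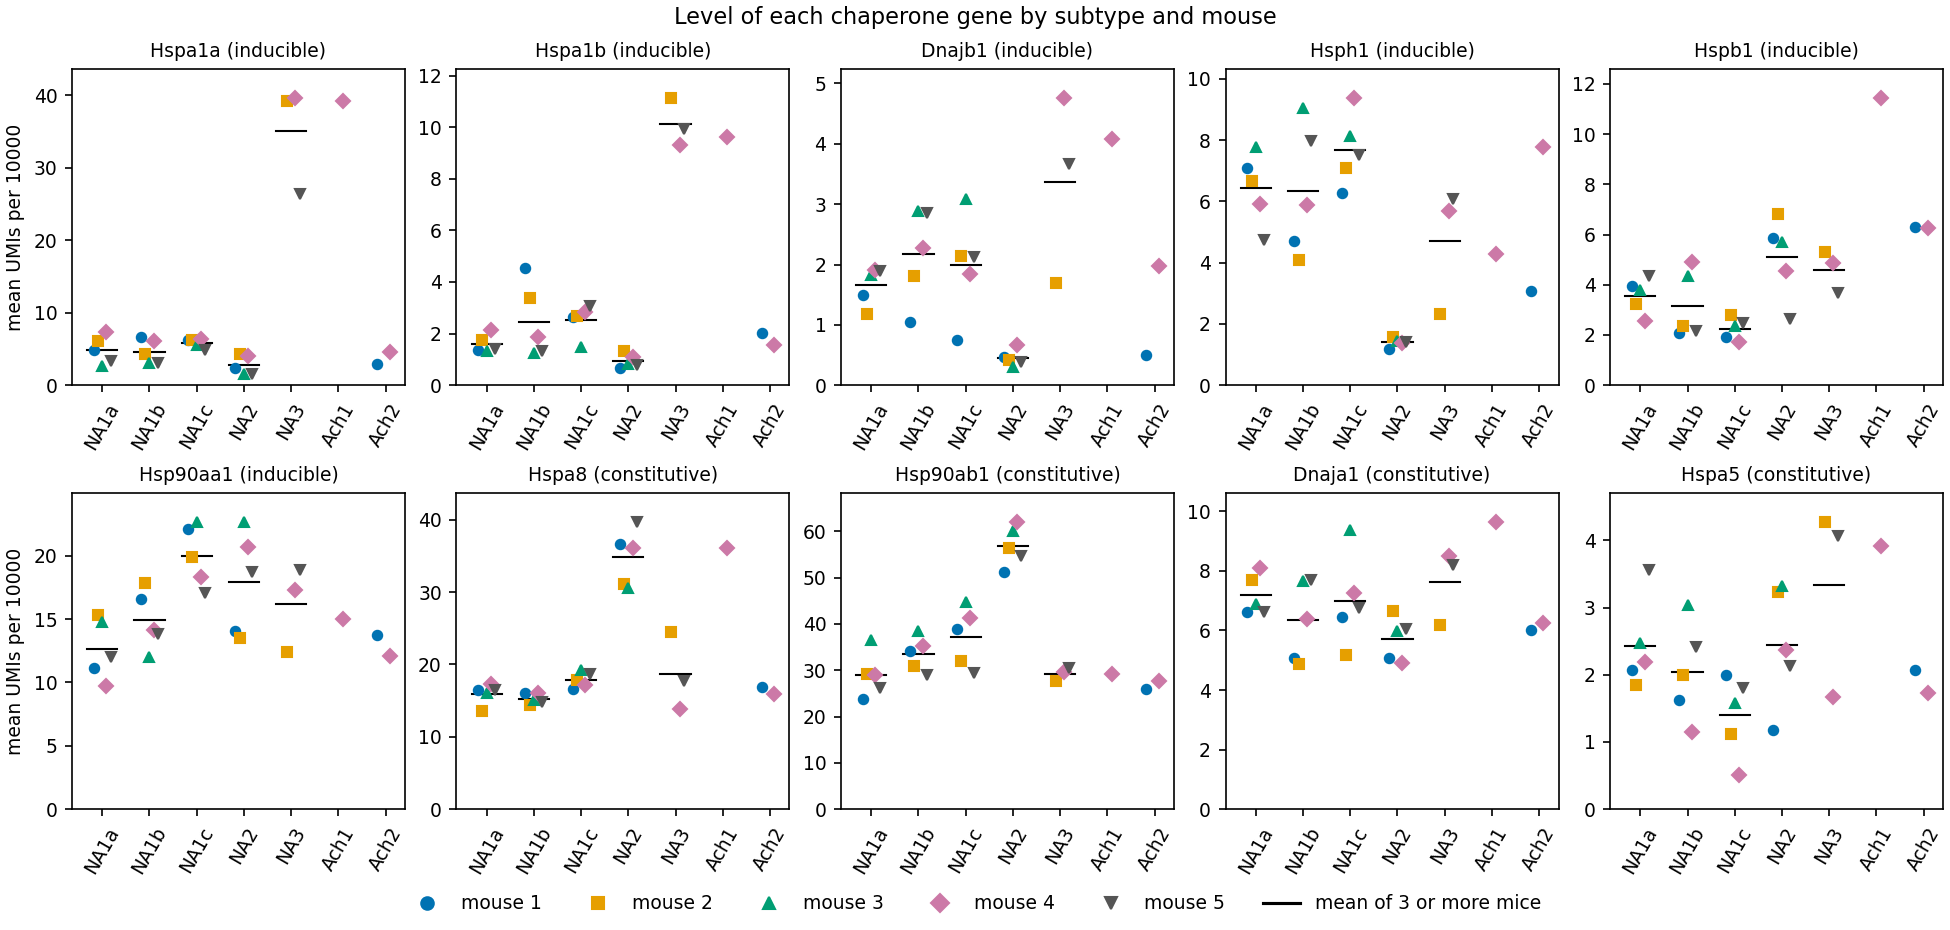
Mean UMIs per 10000 of each member (vertical axis, from 0) in the 7 subtypes with a mouse of at least 10 neurons (horizontal axis), with 1 point for each mouse and a bar for the mean of 3 or more mice. Hspa1a and Hspa1b stand high in NA3 and Ach1, and NA2 is low for Dnajb1 and Hsph1 and high for Hspa8 and Hsp90ab1.

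Over mice, Hspa1a averaged 35.1 ± 7.55 (SD, n = 3) in NA3, 5.86 ± 0.638 (n = 5) in NA1c, 4.88 ± 1.91 in NA1a, 4.62 ± 1.69 in NA1b and 2.74 ± 1.31 in NA2. Within a mouse NA3 exceeded NA1c by 29.2 ± 6.74 UMIs per 10000 (SD of the difference, 3 of 3 mice) and NA1b exceeded NA2 by 1.88 ± 1.56 (5 of 5 mice), whereas neither NA1c and NA1a nor NA1a and NA1b differed by more than the SD of their difference. Hspa1b followed the same order at its ends. It averaged 10.1 ± 0.926 in NA3 (11.1, 9.31 and 9.92 in the 3 mice), against 2.55 ± 0.623 in NA1c, 2.47 ± 1.44 in NA1b, 1.60 ± 0.361 in NA1a and 0.943 ± 0.267 in NA2. The NA2 level of Hspa1b was 1.28 ± 0.444 (n = 4) without the shared barcodes and 1.76 ± 1.73 with UMIs summed over neurons. The NA1b spread came from replicates 1 and 2, at 4.53 and 3.37, while the other 3 mice lay between 1.25 and 1.88. Hspa1b made up 19.0% to 27.4% of the pair in NA3 and 21.1% to 43.7% in the NA1 subtypes.

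In the limma fit of log2(mean + 0.1), with each subtype set against the mean of the other 4 and the mouse as a block, Hspa1a was higher in NA3 by 2.92 ± 0.20 (SE; adjusted p = 8.3e-15) and Hspa1b by 2.41 ± 0.25 (adjusted p = 5.4e-10). In NA2 both were lower, with differences of -1.61 ± 0.16 (adjusted p = 2.6e-11) and -1.61 ± 0.20 (adjusted p = 7.4e-09), and without the shared barcodes of -1.63 and -1.16. The NA2 differences narrowed to -0.94 and -1.07 when NA3 was left out of the comparison and both stayed called. The negative differences of Hspa1a in NA1a (-0.55) and NA1b (-0.63) rested on NA3 as well, since they were 0.19 and 0.11 without it.

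The NA3 level was not common to all mice. Replicates 1 and 3 had 9 and 7 NA3 neurons, too few to enter the fit. Hspa1a was 27.6 in replicate 1 and 3.44 in replicate 3, the latter within the range of the NA1 subtypes. In the same 7 neurons of replicate 3 the satellite glia markers summed to 522, the highest value of the 5 mice, and 14 immediate early genes summed to 45.1, the lowest value of the 5. With a limit of 5 neurons, the mean of Hspa1a in NA3 over 5 mice was 27.2 and that of Hspa1b 8.75. Replicate 3 was also the lowest of the 5 mice for Hspa1a in NA1a and NA2, and for Hspa1b in NA1a, NA1b and NA1c.

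Among the fitted subtypes, the summed markers of satellite glia, Schwann cells and fibroblasts were highest in NA3, as Hspa1a was, and those of endothelial cells were not. Beside the satellite glia sums given above, 6 Schwann cell markers summed to 12.3 to 19.1 and 6 fibroblast markers to 11.7 to 31.3 UMIs per 10000 in NA3, against 1.61 to 3.70 and 0.52 to 3.29 in NA1a, NA1b, NA1c and NA2. Not every marker of these lists was higher in NA3. Over the neurons of the matched mice, Prx was 0.0173 and Ncmap 0.0646 in NA3, against 0.0484 and 0.118 in NA1c. Pdgfra was 0.0166 in NA3 and 0.0382 in NA1b, and Dcn alone was 12.9 in NA3. The filter on low values passed 9 of 10 satellite glia, 4 of 6 Schwann cell and 3 of 6 fibroblast markers, all called higher in NA3, but 6, 1 and 1 of them when NA3 was left out, which also raised the number of profiles the filter asked for, so these calls add nothing to the sums. The endothelial marker sum was 0.28 to 0.40 in NA3 with Cldn5 at 0, within the 0.167 to 1.56 of the other fitted subtypes. The immune marker sum was 0.48 to 4.25 in NA3 and overlapped the 0 to 1.69 of the others. The part of other cells in the level of the chaperones was not tested. When the NA3 neurons of each mouse were divided at their median glial sum, the glial sums were 170 ± 148 and 472 ± 86.6 (SD, n = 3 mice), and Hspa1a was 33.6 ± 14.1 in the neurons with less and 36.2 ± 12.2 in those with more. Hspa1b was 11.4 ± 2.77 and 8.73 ± 1.36. In this division, added after the data had been seen, Hspa1a was 49.4 and 28.1 in replicate 2, 29.0 and 50.2 in replicate 4, and 22.5 and 30.4 in replicate 5, so the direction was not shared by the 3 mice. The neurons with less still had glial sums of 41.0 to 332 by mouse, above the 4.32 to 30.0 of the NA1 subtypes. The division thus gave no NA3 level of Hspa1a at the glial sums of the NA1 subtypes. Immediate early genes, which transiently respond to stimulation and to dissociation, had sums of 66.2 to 86.5 in NA3 against 7.78 to 14.1 in the 4 other fitted subtypes, over 14 genes. Of the 14, 13 were called higher in NA3, where 8.42% of all genes were. With NA3 left out 9 passed the filter, which then asked for more profiles, so this count too adds nothing to the sums. Fos was 17.3 ± 0.942 UMIs per 10000 (SD, n = 3) in NA3 against a mean of 0.928 over the other 4.

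**Figure D2:**
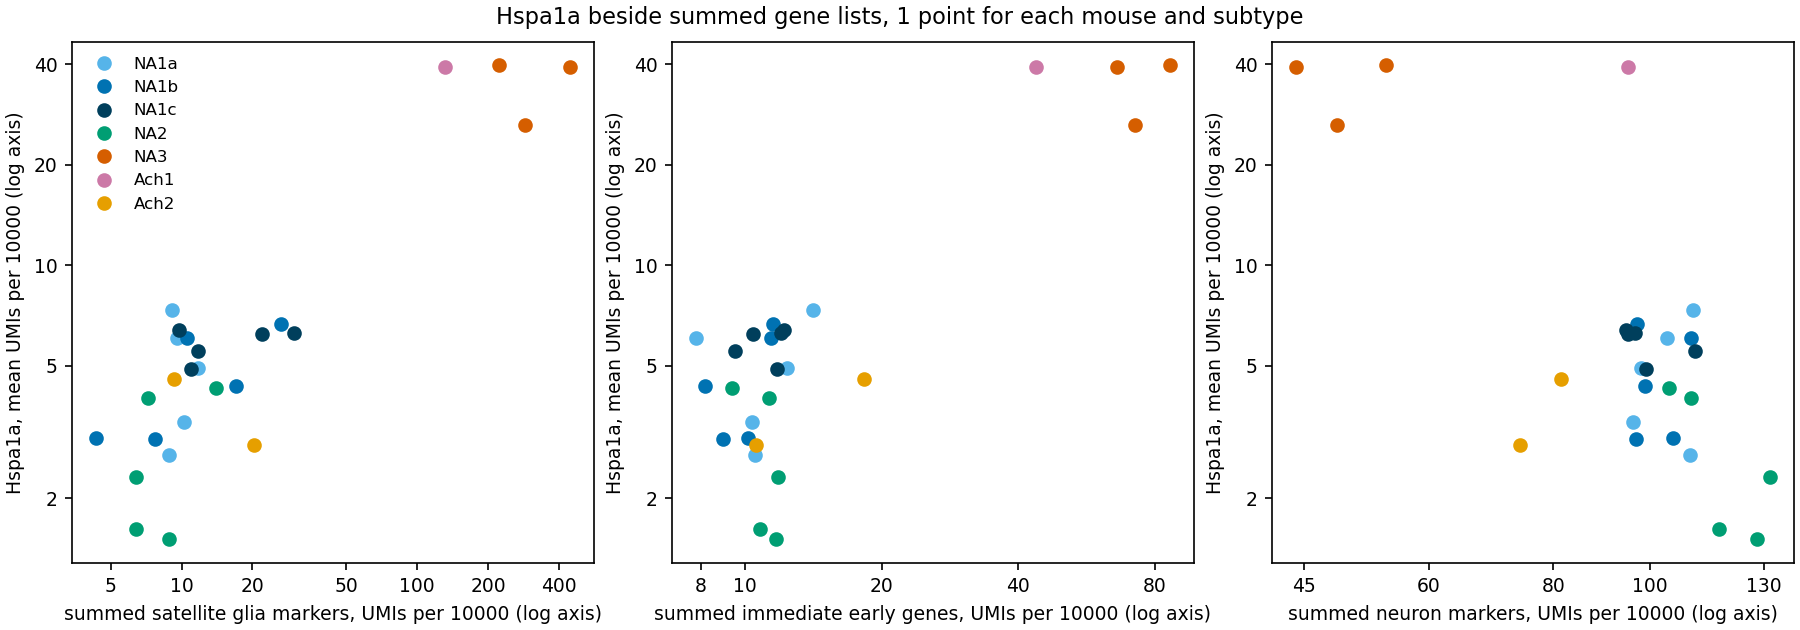
Hspa1a (vertical log axis, mean UMIs per 10000) against the summed satellite glia markers, immediate early genes and neuron markers (horizontal log axes, UMIs per 10000), with 1 point for each mouse and subtype of at least 10 neurons. The 3 NA3 points and the Ach1 point lie apart at the top, at glial sums of 132 to 446, and NA3 alone has neuron marker sums below 60.

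Ach1 resembled NA3 in the Hsp70 pair but could not be replicated, since 55 of its 62 neurons in these mice came from replicate 4. There Hspa1a was 39.2 and Hspa1b 9.63, and every other mouse had 3 Ach1 neurons or fewer, with Hspa1a between 17.2 and 50.6. In the same 55 neurons the glial sum was 132, the fibroblast sum 38.7 and the immediate early sum 43.9. Ach2 stayed low, with Hspa1a at 2.89 and 4.57 in the 2 mice with at least 10 neurons. Over the 17 Glut neurons, Hspa1a averaged 2.57 and Hspa1b 0.742.

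Dnajb1 (chr8:83608193-83612653, plus strand), the Hsp40 cochaperone that delivers substrate to Hsp70 and stimulates its ATPase, had, with Hsph1, the largest negative difference of the members in NA2. In NA2 it was 0.465, 0.417, 0.298, 0.668 and 0.377 in replicates 1 to 5. In NA1a it was 1.50, 1.18, 1.83, 1.92 and 1.89. In NA3 it was 1.69, 4.76 and 3.67 in replicates 2, 4 and 5. The NA2 values lay below all others of the NA1 subtypes and NA3, and the NA3 values overlapped those of NA1a, NA1b and NA1c. The NA2 values rest on few molecules, since 27 of 150 NA2 neurons held a UMI of Dnajb1. The log2 difference in NA2 was -2.02 ± 0.22 (adjusted p = 3.9e-10), and -1.96 without shared barcodes. In NA3 it was 1.09 ± 0.28 (adjusted p = 0.0033), a call that was lost without replicate 4 (adjusted p = 0.12), without replicate 5 (adjusted p = 0.057) and with at least 20 neurons a profile (0.78, adjusted p = 0.10). The size of the NA2 difference depended on the value added before the log and was -1.12 with an added 1. With UMIs summed over neurons, so that deep neurons weigh more, the NA2 level was 0.709.

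Hsph1 (chr5:149614287-149636376, minus strand) encodes the Hsp110 nucleotide exchange factor that resets Hsp70. It was 1.20, 1.58, 1.45, 1.37 and 1.41 in NA2 (SD 0.138). In NA1c it was 6.26, 7.10, 8.14, 9.38 and 7.52. In NA3 it was 2.32, 5.69 and 6.07. NA2 was thus below every other profile fitted, by -2.03 ± 0.17 on the log2 scale (adjusted p = 6.3e-13; -2.15 without shared barcodes). NA1c was higher than the mean of the others by 0.93 ± 0.17 (adjusted p = 9.7e-05). Hsph1 differed from Hspa1a and Hspa1b in NA3, where it was not called (-0.04 ± 0.22, adjusted p = 0.93).

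Hspb1 (chr5:135887919-135889563, plus strand), the small heat shock protein that holds unfolded clients without ATP and is well known in injured peripheral neurons, took another order. It was 5.85, 6.83, 5.72, 4.54 and 2.64 in NA2 and 5.30, 4.86 and 3.65 in NA3. In NA1c it was 1.93, 2.79, 2.35, 1.72 and 2.46. No pair of neighbours in its order differed by more than the SD within mice. The lower level in NA1c was called (-0.80 ± 0.19, adjusted p = 0.0016). The higher level in NA2 was called with all neurons (0.58 ± 0.19, adjusted p = 0.0082) but not without the shared barcodes (0.34, adjusted p = 0.18), where the NA2 mean was 4.37 ± 1.66 (n = 4) in place of 5.12 ± 1.61 (n = 5). Its highest level was in Ach1, at 11.4 in the 55 neurons of replicate 4, and both Ach2 profiles were at 6.31 and 6.26.

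Hsp90aa1 (chr12:110690605-110702728, minus strand), the inducible cytosolic Hsp90, took a narrow range. Its mean was 20.0 ± 2.40 in NA1c, 17.9 ± 4.01 in NA2, 16.2 ± 3.37 in NA3, 14.9 ± 2.34 in NA1b and 12.6 ± 2.39 in NA1a, and no neighbours in this order differed by more than their SD, although every NA1c value (17.1 to 22.7) lay above every NA1a value (9.76 to 15.3). Its calls in NA1a (-0.45, adjusted p = 0.039) and NA1c (0.39, adjusted p = 0.037) were lost under 9 and 10 of 16 other settings. The difference in NA2 was 0.17 ± 0.15 (adjusted p = 0.31), and without shared barcodes it was 0.40 and called (adjusted p = 0.041).

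Among the constitutive members, Hspa8 (chr9:40800984-40810087, plus strand), the housekeeping Hsc70 that also strips clathrin from synaptic vesicles, was 36.6, 31.1, 30.6, 36.1 and 39.7 in NA2. In NA1b it was 16.1, 14.4, 15.1, 16.1 and 14.8. In NA3 it was 24.4, 13.9 and 17.7. Every NA2 value was above every value of the other 4 subtypes, and NA2 exceeded NA3 within a mouse by 16.9 ± 8.92 (3 of 3 mice). The log2 difference in NA2 was 1.04 ± 0.13 (adjusted p = 1.2e-08), and 1.11 without shared barcodes. Ach1 was alike in level, at 36.03 in replicate 4.

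Hsp90ab1 (chr17:45567775-45573271, minus strand), the constitutive cytosolic Hsp90, was 51.2, 56.5, 60.1, 62.0 and 54.7 in NA2. In NA1c it was 38.9, 31.98, 44.8, 41.3 and 29.4. In NA3 it was 27.7, 29.6 and 30.5. NA2 exceeded NA1c in 5 of 5 mice, by 19.6 ± 5.69, and NA1c exceeded NA1b in 5 of 5, by 3.71 ± 2.85. The log2 difference in NA2 was 0.82 ± 0.13 (adjusted p = 5.6e-07), and 0.78 without shared barcodes.

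Dnaja1 (chr4:40722150-40737149, plus strand), a farnesylated Hsp40 partner of Hsc70, was called in none of the 5 subtypes, with means from 5.73 ± 0.734 in NA2 to 7.64 ± 1.26 in NA3. With neurons thinned to 2000 UMIs it was called lower in NA2 (-0.58, adjusted p = 0.027, against -0.28 and adjusted p = 0.080 unthinned). Hspa5 (chr2:34771970-34777547, plus strand) encodes BiP, the Hsp70 of the endoplasmic reticulum. It averaged 3.33 ± 1.45 in NA3 and 1.40 ± 0.601 in NA1c, with the other subtypes between 2.04 and 2.45, and no neighbours differed by more than their SD. The lower level in NA1c was called (-0.87 ± 0.21, adjusted p = 0.0020). The higher value in NA3 just missed the threshold (0.72 ± 0.27, adjusted p = 0.054), and without shared barcodes it was 0.80 and called (adjusted p = 0.044). In the 7 Glut neurons of replicate 4 Hspa5 was 3.34 and in the 7 of replicate 5 it was 12.5, so its level over all 17 Glut neurons of 6.90 rested on 1 mouse.

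**Figure D3:**
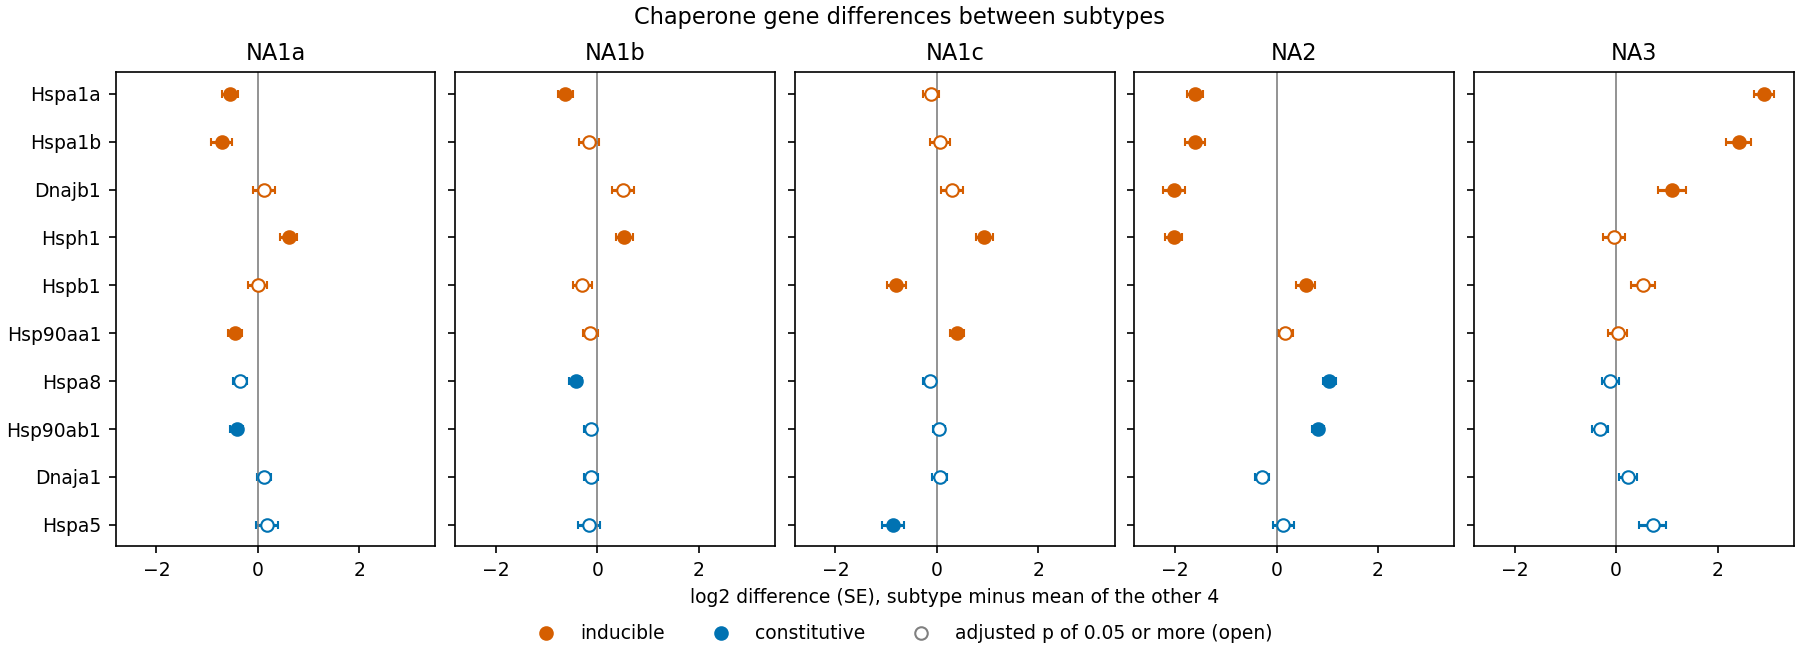
Log2 difference of each member (horizontal axis, bars are SE) in each of the 5 fitted subtypes against the mean of the other 4, with inducible members in orange, constitutive members in blue and filled points at an adjusted p below 0.05. NA2 has 4 inducible members between -2.03 and -1.61 and 2 constitutive members above 0.8, and NA3 has 3 inducible members above 1.

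Counted over members, 7 of 10 were called in NA2, where 63.9% of all 6185 genes were. There 4 of 6 inducible members were lower (Hspa1a, Hspa1b, Dnajb1 and Hsph1), 1 was higher (Hspb1) and 1 not called, while 2 of 4 constitutive members were higher and none lower. Of all genes, 38.9% were called lower and 25% higher in NA2, and the median difference of all genes was -0.25. The share of members called was close to that of all genes. The median over inducible members was -1.61 and over constitutive members 0.48. In NA3 3 of 10 members were called, against 19.2% of all genes. NA3 had 3 of 6 inducible members higher and none of 4 constitutive members called, where 8.42% of all genes were called higher and 10.8% lower. In NA1a 1 member was higher and 4 were lower (8.04% and 3.38% of all genes, 11.4% in all). In NA1b 1 was higher and 2 were lower (13.3% and 8.38%, 21.7% in all), and in NA1c 2 were higher and 2 lower (18.1% and 13%, 31% in all). With NA3 left out, 5 of 6 inducible members were called higher in NA1c and 1 lower, against 2 and 1 with it, with Hspa1a at 0.64 (adjusted p = 0.0024), Hspa1b at 0.71 (adjusted p = 0.0089) and Dnajb1 at 0.61 (adjusted p = 0.030). In that fit 1811 genes were called in NA1c, against 1918 with NA3. The filter then asked for more profiles, so the 2 totals are over different sets of genes. Shares by direction were not worked out for that fit, and the 18.1% and 13% do not apply to it. The count of 5 of 6 thus has no share of all genes beside it and is description only. The median difference in NA1c in that fit was 0.63 over inducible members and 0.12 over all genes. The mitochondrial share of UMIs was 6.16% to 8.84% in NA2, 5.35% to 11.3% in NA3 and 1.88% to 7.21% in the NA1 subtypes, and depth was lower in NA2 than in NA1a. The part of the mitochondrial share was not tested. With 813 neurons thinned to 2000 UMIs each, and shallower neurons left out, the NA2 differences were -1.62 for Hspa1a, -1.46 for Hspa1b, -2.39 for Dnajb1, -2.52 for Hsph1, 1.08 for Hspa8 and 0.82 for Hsp90ab1, all called. Hspb1 lost its call in NA2 (0.62, adjusted p = 0.058) and Dnaja1 gained one.

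The other chaperone systems were read from lists of genes, and their NA2 counts with all neurons stand against 25% of all genes called higher and 38.9% lower. These shares do not apply to the counts without shared barcodes, where 3290 genes were called in NA2 in place of 3954. All 7 tested genes of the cytosolic chaperonin CCT, the ring that folds actin and tubulin, had positive differences in NA2: 6 of 7 tested were called higher and none lower (median 0.88; 7 of 7 without shared barcodes), with Cct8 at 1.34 (3.32 ± 0.967 against a mean of 1.29) and Cct5 at 1.08 (2.30 ± 0.619 against 1.04). Of 14 tested partners of the Hsp70 cycle 6 were higher and 1 lower in NA2, among them Hspa2 (1.29), a further Hsp70, and Bag1 (0.93), a nucleotide exchange factor, with Dnajb2 lower (-0.52). Without shared barcodes 6 were higher and none lower. Of 11 tested Hsp90 cochaperones 5 were higher and 3 lower, among them Sugt1 (1.07) and, at the other end, Cdc37l1 (-1.20) and Unc45a (-0.94). Without shared barcodes 3 were higher and 2 lower, and the median of the list was -0.05 in place of 0.05. Of 12 tested regulators of HSF1 and further heat-responsive genes 3 were higher and 5 lower in NA2, shares close to those of all genes, and 3 and 4 without shared barcodes. Cacybp (1.38) and Hsbp1 (1.08), which binds HSF1 trimers, were highest, and Dnajb4 (-1.34) and Ahsa2 (-1.25) lowest. Of 4 tested mitochondrial chaperone genes, 2 were higher, Grpel1 (1.104) and Hspe1 (0.88), and without shared barcodes 1 of 5 (median 0.13 in place of 0.46). Of 19 tested genes for endoplasmic reticulum chaperones and their stress response 4 were higher and 1 lower in NA2, and 2 and none without shared barcodes.

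In NA3, 4 of these 19 genes were higher and none lower, where 8.42% of all genes were higher (median 0.35, against -0.17 over all genes), with Dnajc3 at 1.72 (1.59 ± 0.117 against 0.447) and P4hb at 1.34. With NA3 left out 13 of the list passed the filter on low values, which then also asked for more profiles. Genes high in NA3 may thus have been tested through it, as the 0.447 of Dnajc3 lies below the limit of 0.5. The NA3 count and median are therefore description only. In NA1c, 6 of the 19 were lower and none higher, where 13% of all genes were lower. Of the 13 that passed the filter with NA3 left out, 4 were lower in NA1c, a count with no share of all genes beside it. CCT genes had no calls in NA3. Of the HSF1 list, 2 of 12 were higher in NA3, among them Cryab (3.87), and Hspb8 was lower (-0.92). With NA3 left out 11 of this list passed the filter, so a gene high in NA3 may have been tested through it. Cryab encodes a small heat shock protein that glia also express, and it was 5.17 ± 2.98 in NA3.

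**Figure D4:**
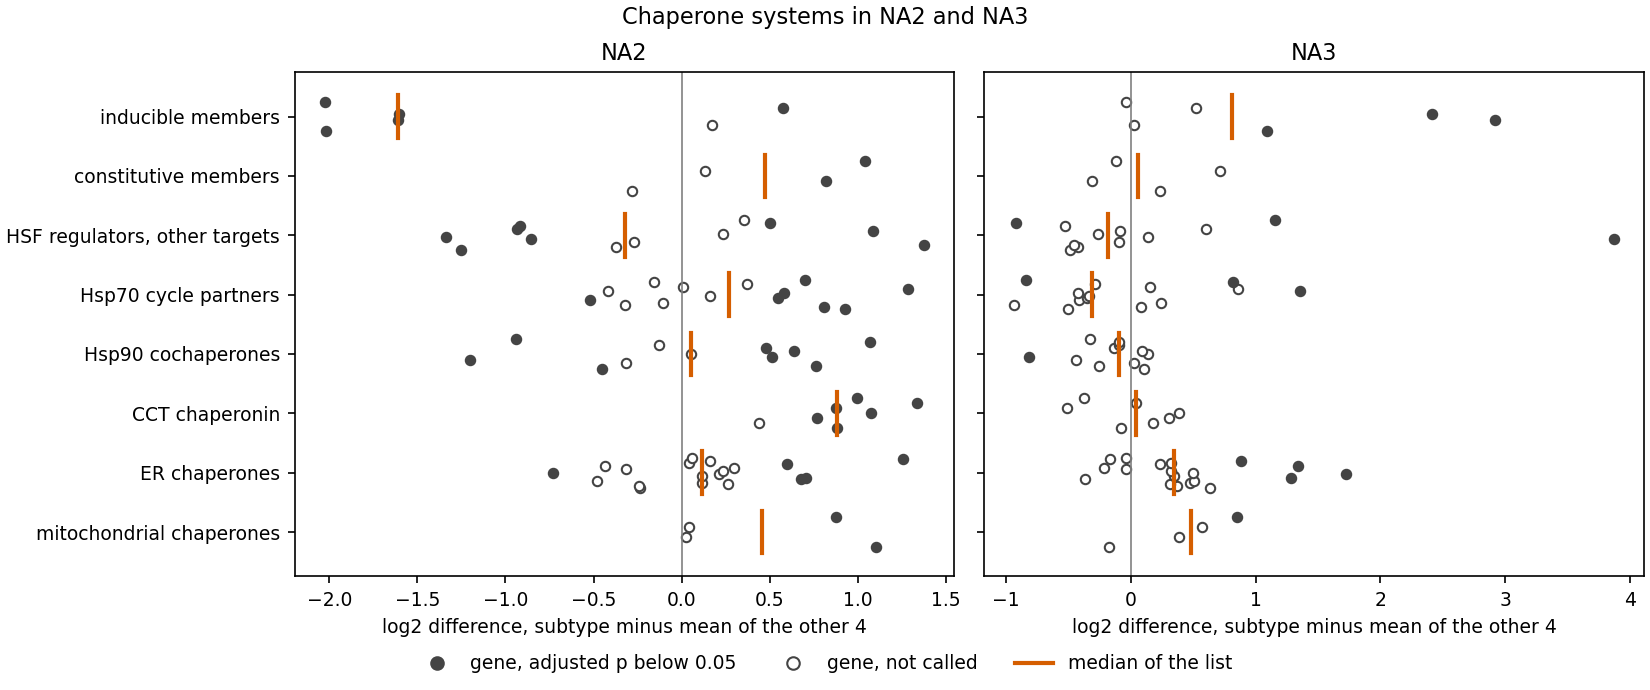
Log2 differences of every tested gene (points, filled where the adjusted p was below 0.05) in 8 lists of chaperone genes (the members among them) for NA2 and NA3 against the mean of the other 4 subtypes, with the median of each list as an orange bar. The inducible members have a median of -1.61 and the CCT genes of 0.88 in NA2.

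The spread over mice is described without a test. In NA1a, Hspa1a differed 2.73-fold between the lowest and the highest mouse (CV 39.0%), against 1.27-fold for Hspa8 (8.78%), 1.23-fold for Dnaja1 (9.46%) and 1.54-fold for Hsp90ab1 (16.6%). The median CV of the 1859 genes with a mean of at least 1 was 21.3%. Hspb1 had 19.3%, Hspa1b 22.6% and Hspa5 27.5%, so not every inducible member exceeded every constitutive one. In NA1b the CV was 36.5% for Hspa1a and 58.2% for Hspa1b, and 4.90% for Hspa8. In NA1c it was 10.9% for Hspa1a and 6.01% for Hspa8, but 17.3% for Hsp90ab1, 21.9% for Dnaja1 and 42.9% for Hspa5. The median CV of genes with a mean of at least 1 was 27.0% there, so Hspa1a was not among the more variable genes in NA1c.

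Over all neurons of a mouse, Hspa1a was 7.03, 8.56, 2.88, 15.5 and 8.14 in replicates 1 to 5, and leaving out NA3 and Ach1 brought replicate 4 to 5.66 and the others to 5.03, 5.13, 2.73 and 3.53. The high value of replicate 4 went with its Ach1 and NA3 neurons, and the low value of replicate 3 did not depend on them. Hspa8 ranged from 17.6 to 24.8 over the same mice and from 16.7 to 22.0 without these subtypes.

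**Figure D5:**
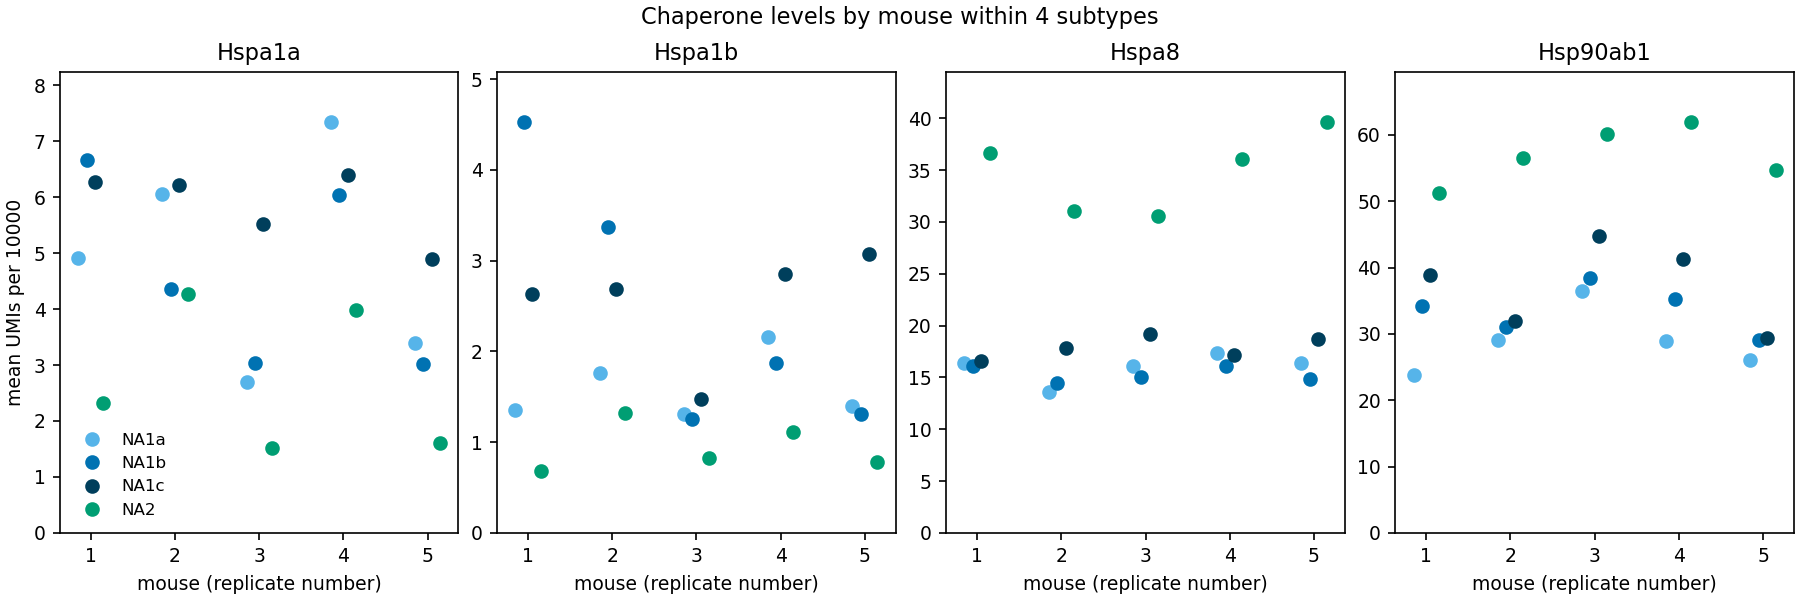
Mean UMIs per 10000 of 4 members (vertical axes, from 0) in each of the 5 mice (horizontal axis, numbers without order), with 1 point for each of NA1a, NA1b, NA1c and NA2. Hspa1a spreads between 1.51 and 7.35 while Hspa8 keeps NA2 at 30.6 or more and the NA1 subtypes below 20 in every mouse.

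The genes whose level was most like that of a member over the 23 profiles were found by Pearson's r of log2(mean + 0.1), given as a description since profiles share mice and depth. For Hspa1a they were Hspa1b (0.92), Sparc (0.92) and Sfrp1 (0.92), and for Hspa1b they included Sparc (0.93) and Hspa1a (0.92), so that the satellite glia marker Sparc was among the nearest to both. Over the neurons of the matched mice Sparc was 19.9 in NA3 and 0.372 to 1.22 in the other fitted subtypes, so all 3 genes stood apart in NA3. By Spearman's rho the nearest to Hspa1a were Hspa1b, Sfrp1 and Trim2, without Sparc. Hsph1 was most like Adgrb3 (0.96), Dot1l (0.96) and Shtn1 (0.95), and Dnajb1 most like Dnm2 (0.88), Tet2 (0.87) and Rela (0.86). Hspa8 was most like the cytoskeletal genes Tuba1a (0.96), Actg1 (0.90) and Tubb2a (0.90), and Hsp90ab1 most like Gnb1 (0.85), Tuba1b (0.84) and Gdi2 (0.83). Hspa5 was most like Calr (0.77), another chaperone of the endoplasmic reticulum, Cnpy2 (0.77) and Cwc15 (0.75), and Hsp90aa1 most like Vcp (0.73), Chd3 (0.71) and Cplx2 (0.67). Hspb1 was most like Snu13 (0.85), Krtcap2 (0.82) and Tspan3 (0.82), and Dnaja1 most like Hnrnpdl (0.77), Mfsd10 (0.71) and Dlg1 (0.69). These neighbours depend on the measure: over the 10 members, at least 1 of the 3 nearest genes changed in 19 of 20 cases when Spearman's rho was used or profiles were centred on their mouse.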

How the data were processed

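Single cells of 8 samples were captured on the 10x Genomics Chromium. According to the methods and the submitters' processing notes, the authors aligned reads with Cell Ranger 2.1.1 to mm10 with the GFP sequence added, filtered cells in Seurat (500 to 6000 genes, under 20000 UMIs and under 15% mitochondrial UMIs) and clustered them; no doublet removal was stated and none was applied. The deposited values are the natural log (ln) of 1 plus UMIs per 10000. The 5 matched mice held 916296 to 1196621 UMIs. Whole UMIs were recovered from them (100% of values within 0.01 of a whole number).

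Profiles were means of UMIs per 10000 over at least 10 neurons of a mouse and subtype. Subtypes with at least 3 such mice (23 profiles) were fitted with limma 3.58.1 in R 4.3.3 on log2(mean + 0.1), with trend and the mouse as a block, over 6185 genes with at least 0.5 UMIs per 10000 in as many profiles as the smallest subtype has, and p-values were adjusted by Benjamini-Hochberg (threshold 0.05). The block was used because profiles of a number come from 1 mouse. The protocol speaks of ganglia being combined before digestion, so mice may not be fully separate preparations. Members and gene lists were chosen with earlier results of these data known. Named were all members, the 2 highest and 2 lowest called genes of each list, and the 3 genes most like each member; some genes that this rule names are not reported here. Alternatives were a fit without the block, other pseudocounts, filters, minimum numbers of neurons, summed UMIs, mean ln values, thinning to 2000 UMIs, centring, and leaving out each replicate or NA3. Leaving out the shared barcodes and dividing NA3 by glial sum were chosen after seeing the data. The cluster number column was not used. The script was tested on simulated data. Other values and plots were made in Python 3.11.15 (pandas 2.3.3, NumPy 2.4.6, matplotlib 3.10.9).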

Additional observations from a re-analysis of the deposited data

Results flagged for a closer look

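In NA1c, Hspa1b in replicate 3 was 1.47 UMIs per 10000, far below the other 4 mice, which lay between 2.63 and 3.08. Of 40 groups of 5 mice examined in this way, 1 stood out, and chance flags about 1 group in 20.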

How the results depend on the processing

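Of the 22 member differences called, those of Hspa1a, Hspa1b, Dnajb1, Hsph1, Hspa8 and Hsp90ab1 in NA2, Hspa1a and Hspa1b in NA3, and Hsph1, Hspb1 and Hspa5 in NA1c kept direction and call under every alternative run, with Hspa1a between 2.30 and 3.08 in NA3 and between -1.77 and -0.94 in NA2. The others lost the call in 60 cases. Without NA3, Hspa1a turned from negative to 0.19 in NA1a and 0.11 in NA1b; by construction NA3 then no longer sets the mean. The number of genes called changed by more than 1.5 times with mean ln values (1567 in NA1a), with thinning (NA1a 250, NA1b 525, NA1c 941, NA2 2580) and with no filter on low values (1833 in NA3); the cause was not tested. Without 1 replicate it ran for NA1a from 378 to 480, for NA1b from 853 to 1160, for NA1c from 1427 to 1608, for NA2 from 3585 to 3801 and for NA3 from 796 to 1163, against 706, 1343, 1918, 3954 and 1188. Without the replicate block it was 543, 1163, 1761, 3891 and 1172; the calls of Hspa1a, Hsp90aa1 and Hsp90ab1 in NA1a were lost (adjusted p = 0.080, 0.064 and 0.075). Profiles of a number share an animal, which is where the block comes from.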

Other observations

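The 3 mouse names that matched no single sample held 60, 70 and 171 neurons. Hspa1a was 9.87, 7.82 and 8.12 UMIs per 10000 over their neurons and Hspa1b 5.47, 5.90 and 6.34, so that Hspa1b made up 35.7%, 43.0% and 43.8% of the pair, against 20.8% to 30.8% in the 5 matched mice. Hsp90aa1 was 10.7, 10.7 and 10.6 in the 3, and 15.5 to 17.5 in the 5. These values were taken over all subtypes, and the mix of subtypes differed. NA1a held 182 of the 1002 neurons of the matched mice and 316 of all 1303, and NA3 held 92 and 99. Among the fitted subtypes Hsp90aa1 was lowest in NA1a (12.6), and Hspa1b made up 22.8% of the pair in NA3. The part of the mix was not tested. No test was made between the 3 and the 5, since the labels put these 3 in no sample. The 5 matched samples are all of batch 2 in the sample list of the study. The 3 other samples, the only ones left for these names, are all of batch 1. If these names are those samples, mouse and batch cannot be told apart.

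Of the neurons of all names, 6 held a UMI of GFP and 20 a UMI of tdTomato. The sets overlapped, since a neuron with UMIs of both reporters was counted in each, and the highest Hspa8 value was the same in both. The paper reports that no neuron was labelled from both heart and paw. Hspa1a ranged from 0 to 21.0 with a median of 7.63 in the GFP neurons and from 0 to 38.2 with a median of 3.88 in the tdTomato neurons, and Hspa8 from 12.5 to 34.6 and from 6.40 to 34.6. These numbers were too small for a comparison.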
